A study of Mus musculus with 12 samples.

Results

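The genes described here encode the subunits of the chaperonins, the barrel-shaped machines that fold proteins inside a closed chamber. They were chosen by name, with earlier results of these data known. They are the 8 subunits of the cytosolic chaperonin (Tcp1, Cct2, Cct3, Cct4, Cct5, Cct6a, Cct7 and Cct8) and the mitochondrial pair Hspd1 and Hspe1, 10 of the 23284 gene symbols in the tables. All 10 were found, and all 10 passed the filter on low values that left 13175 genes for testing. RNA came from secondary 1B mouse embryonic fibroblasts, a single line in which doxycycline (dox) switches on inducible reprogramming factors. The 6 groups were siMyc with dox (siRNA against c-Myc, gene Myc), siGcn5 with dox (siRNA against Gcn5, gene Kat2a), siControl with dox (control siRNA), siMyc without dox, siGcn5 without dox and siControl without dox, with 2 libraries each. Dox was given for 2 days, and every group, controls included, had the inducible factors and an siRNA transfection. Nothing in the labels says whether the replicates were separate cultures or whether a pool or a single siRNA was used, and the p-values below speak only for the spread of these libraries, possibly a technical one. The study asked how Myc and Gcn5, the acetyltransferase of the SAGA coactivator, act in the first days of reprogramming.

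The cytosolic chaperonin, called TRiC or CCT, is a pair of stacked rings in which each subunit type has a fixed place, and it folds actin, tubulin and other proteins that do not fold unaided. Its subunits are related in sequence and each is encoded by a gene of its own. The mitochondrial chaperonin is simpler: Hspd1 encodes Hsp60, which forms the ring, and Hspe1 encodes Hsp10, the lid that closes it over proteins newly imported into the matrix. Myc is known to bind many genes of growth and protein synthesis, and heat shock factor 1 is known to induce chaperone genes under protein stress.

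Hspd1 and Hspe1 lie head to head on chromosome 1 and their starts lie close together, so these are shown first. RefSeq windows from 250 bases before a gene start to 50 bases after it were found for 9 of the 10 genes, in 12 windows (build GRCm38.p6, which is not the mm9 build of the tables). Capitals mark CACGTG (the E-box that Myc and its partner Max bind), GAANNTTC or TTCNNGAA (paired units of the heat shock element), and CCAAT on either strand. The first 3 motifs read the same on both strands, and GAANNTTC can overlap TTCNNGAA. The Hspe1 window is chr1:55087898-55088197 on the plus strand, and the Hspd1 window is chr1:55088194-55088493 on the minus strand. The windows of Cct3 (chr3:88296885-88297184, plus strand) and Cct6a (chr5:129787106-129787405, plus strand) are shown for the cytosolic genes with the largest rise with dox and the largest fall with siMyc.
Hspe1: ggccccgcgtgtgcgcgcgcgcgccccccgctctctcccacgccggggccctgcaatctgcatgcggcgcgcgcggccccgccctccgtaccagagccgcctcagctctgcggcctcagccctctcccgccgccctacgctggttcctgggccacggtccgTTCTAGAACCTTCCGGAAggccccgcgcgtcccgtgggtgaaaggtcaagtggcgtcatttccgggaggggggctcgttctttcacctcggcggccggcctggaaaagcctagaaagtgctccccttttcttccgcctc
Hspd1: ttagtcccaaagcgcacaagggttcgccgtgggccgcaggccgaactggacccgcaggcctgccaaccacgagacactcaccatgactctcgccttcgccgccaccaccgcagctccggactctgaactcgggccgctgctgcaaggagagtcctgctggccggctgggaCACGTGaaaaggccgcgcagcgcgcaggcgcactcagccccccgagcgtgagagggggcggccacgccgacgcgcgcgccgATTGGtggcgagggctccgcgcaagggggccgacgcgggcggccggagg
Cct3: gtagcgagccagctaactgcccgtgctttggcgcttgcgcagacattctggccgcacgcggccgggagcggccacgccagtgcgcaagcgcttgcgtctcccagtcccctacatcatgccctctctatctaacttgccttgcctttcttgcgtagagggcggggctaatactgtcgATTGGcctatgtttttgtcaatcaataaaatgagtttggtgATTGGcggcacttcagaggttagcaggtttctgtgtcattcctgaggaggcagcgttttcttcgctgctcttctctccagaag
Cct6a: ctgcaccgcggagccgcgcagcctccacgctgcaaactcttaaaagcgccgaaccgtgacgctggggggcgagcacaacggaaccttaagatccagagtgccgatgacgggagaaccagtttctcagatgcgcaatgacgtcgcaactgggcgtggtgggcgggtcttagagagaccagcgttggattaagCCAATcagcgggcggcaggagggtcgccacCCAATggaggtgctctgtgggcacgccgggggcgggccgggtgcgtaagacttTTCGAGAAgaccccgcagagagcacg
In the Hspe1 window the capitals form a single run in which 2 matches to TTCNNGAA overlap 1 to GAANNTTC, beginning 89 bases before the start. The same run, on the opposite strand, lies in the other Hspd1 window, which shares 285 bases with that of Hspe1. The E-box of Hspd1 begins 80 bases before its start, and it was the 1 match to CACGTG in the 12 windows, while 7.15% of all 32851 windows of this length hold one. GAANNTTC was found in windows of 3 genes (Cct2, Hspd1 and Hspe1) and TTCNNGAA in windows of 4 (Cct5, Cct6a, Hspd1 and Hspe1) of the 9, against 9.04% and 9.60% of all 27025 genes with a window. CCAAT or its reverse was found for 5 genes (Tcp1, Cct3, Cct6a, Cct7 and Hspd1) of the 9, against 41.1% of all genes with a window. These are matches of letters, not sites of binding.

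Levels below are RPKM, deposited read counts scaled to transcript length and library size, which can be set side by side between genes. The libraries held 65.55 to 188.2 M gene reads, and a chaperonin gene had 6919 to 214896 reads in a library, 0.307% to 0.896% of all gene reads for the 10 together. The targeted genes checked the labels. Myc stood at 16.9 and 26.2 RPKM in siMyc cells with dox, against 174 and 155 in siControl cells with dox (log2 −2.91, adjusted p = 6.24e-07), and at 4.58 and 4.80 in siMyc cells without dox, against 21.8 and 17.6 in siControl cells (log2 −1.85, adjusted p = 0.000604). Kat2a stood at 6.27 and 9.11 RPKM in siGcn5 cells with dox, against 55.7 and 53.1 in siControl cells with dox (log2 −2.69, adjusted p = 2.9e-06), and at 1.33 and 1.97 without dox, against 23.0 and 20.7 (log2 −3.12, adjusted p = 1.63e-06). Each knockdown also lowered the other target in 1 or both conditions: Kat2a fell in siMyc cells with dox (log2 −1.49, adjusted p = 8.27e-06), and Myc fell in siGcn5 cells with dox (log2 −0.51, adjusted p = 0.0464) and without dox (log2 −1.17, adjusted p = 0.000613). All tests are two-sided limma tests on log2(RPKM + 1) over all 12 libraries, adjusted over 13175 genes by the Benjamini-Hochberg method, and a gene was called at an adjusted p under 0.05. Dox raised Myc itself, by log2 3.01 in siControl cells, 3.67 in siGcn5 cells and 1.96 in siMyc cells, all called. Dox and the siRNA against c-Myc thus moved the same gene. The Myc levels of siMyc cells with dox overlapped those of siControl cells without dox.

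**Figure D1:**
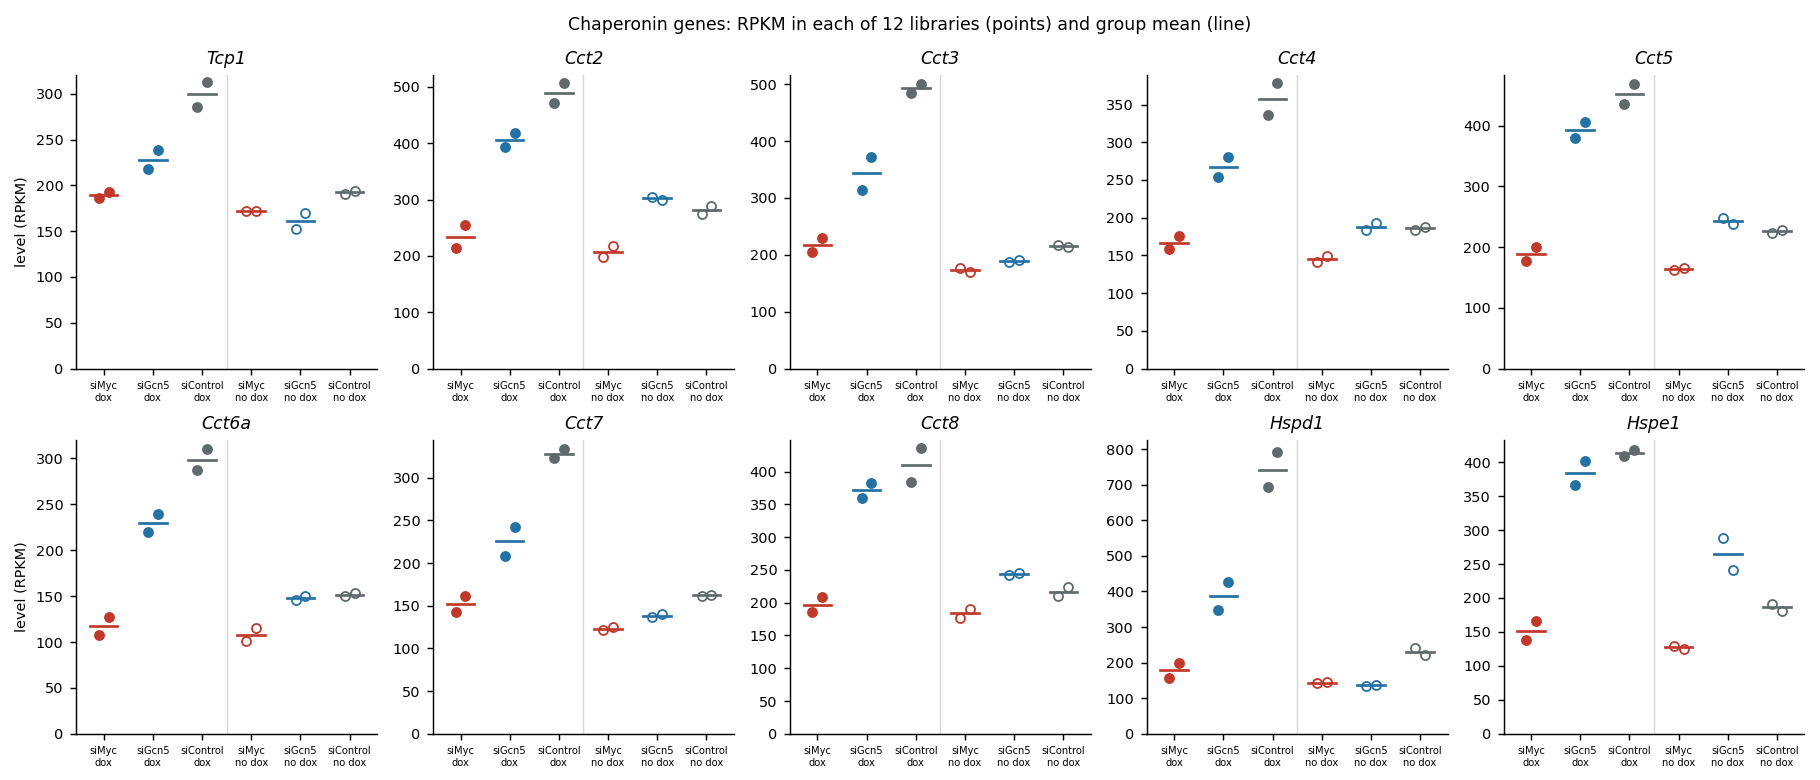
RPKM of each chaperonin gene (y axis, from 0) in the 12 libraries (points) with the group mean (line); filled points had dox and open points did not. The highest levels were in siControl cells with dox, and siMyc cells with dox stayed near the levels without dox.

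Fibroblast markers were present in every group, 10 of 10 at an RPKM of 1 or more. Their summed level was 5649 to 5656 RPKM in siMyc cells with dox, 4415 to 5162 in siGcn5 cells with dox and 2860 to 3271 in siControl cells with dox, and 9149 to 11340 over the 3 groups without dox. The 6 epithelial markers summed to 1131 to 1245 RPKM in siMyc cells with dox, 466 to 542 in siGcn5 cells with dox and 457 to 522 in siControl cells with dox, against 7.29 to 7.63 in siMyc cells, 36.9 to 42.7 in siGcn5 cells and 6.75 to 7.68 in siControl cells without dox. Of the 6, the number at an RPKM of 1 or more was 5, 5 and 6 in those groups with dox and 1, 2 and 1 in those without. The pluripotent, neural and adipocyte lists summed to under 2 RPKM in every library (highest 1.84). Endothelial markers summed to 1.32 to 11.6 RPKM, blood markers to 3.58 to 9.62, and skeletal muscle markers to 37.9 to 256, the last with the highest sums in siMyc cells with dox and 1 of 4 genes at an RPKM of 1 or more. Listed at 0 in a whole group were Hbb-b1 (siControl with dox and all 3 groups without dox), Tdgf1 and Elavl3 (siControl without dox), Dppa4 and Cidec (siMyc without dox), Adipoq (siControl without dox) and Plin1 (all 3 groups without dox). The fibroblast sums moved with dox, with siMyc and with siGcn5. The epithelial sums moved with dox, with siMyc in cells with dox, and with siGcn5 in cells without dox. They overlapped those of siControl cells for siMyc without dox and for siGcn5 with dox. The part of both lists in the chaperonin values was not tested. In bulk RNA, fewer cells of a type and less RNA per cell cannot be told apart.

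Dox raised all 10 chaperonin genes in siControl cells, by log2 0.63 (Tcp1) to 1.68 (Hspd1), at a median of 0.99. The summed RPKM of the 8 cytosolic subunits was 3009 and 3246 in siControl libraries with dox, against 1609 and 1653 without. Of all genes tested, 74.0% were called in this comparison, 46.1% rose, and the median of all genes was log2 0.17, a shift that came to 0.03 under median-ratio scaling and 0.00 under quantile normalization. Rises made up 62.3% of calls, against 52.2% and 49.9% under those scalings, and the members' median was then 0.81 and 0.84, with all 10 called as higher. The call of all 10 genes held in each of the 21 alternative settings.

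Among the cytosolic subunits with dox, Cct3 (subunit gamma) rose most, with 486 and 501 RPKM in siControl cells with dox against 217 and 214 without dox (log2 1.19, SE 0.087, adjusted p = 1.07e-06). Cct7 (eta) had 323 and 334 RPKM with dox, against 161 and 163 without (log2 1.01, SE 0.084, adjusted p = 2.36e-06), and Cct5 (epsilon) had 436 and 469, against 223 and 228 (log2 1.00, SE 0.075, adjusted p = 1.28e-06). In each of the 3 genes the libraries with dox lay far above those without, at close to 2-fold or more (fitted folds of 2.00 to 2.28). Cct6a (zeta), the lowest or next to lowest subunit in siControl cells, had 288 and 309.8 RPKM with dox, against 149.7 and 154 (log2 0.97, adjusted p = 7.01e-06). Cct4 (delta) had 336 and 378, against 184 and 188 (log2 0.94, adjusted p = 4.13e-06). Cct8 (theta) had 385 and 436, against 210.3 and 224 (log2 0.91, adjusted p = 5.36e-06). As with the other members, the libraries of these 3 genes did not overlap between the conditions. Cct2 (beta), the subunit with the highest RPKM without dox, had 471 and 506 RPKM with dox, against 274 and 288 (log2 0.80, adjusted p = 2.28e-05). Tcp1 (alpha), the subunit that gave the complex its older name, had 285 and 313, against 191 and 194 (log2 0.63, adjusted p = 3.94e-05), the smallest rise of the 10.

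The mitochondrial ring gene Hspd1 rose most of all, to 692 and 793 RPKM in siControl cells with dox, against 241 and 221 without dox (log2 1.68, SE 0.13, adjusted p = 1.4e-06). That is 3.20-fold on the log2(RPKM + 1) scale (95% interval 1.40 to 1.97 on log2), a change larger than that of 96.5% of genes tested. The lid gene Hspe1 had 409 and 418 RPKM with dox, against 192 and 181 without (log2 1.15, SE 0.11, adjusted p = 4.57e-06). Both dox libraries of each gene lay above both libraries without dox, and Hspd1 became the chaperonin gene with the highest RPKM, above Cct3 and Cct2, whose libraries overlapped.

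**Figure D2:**
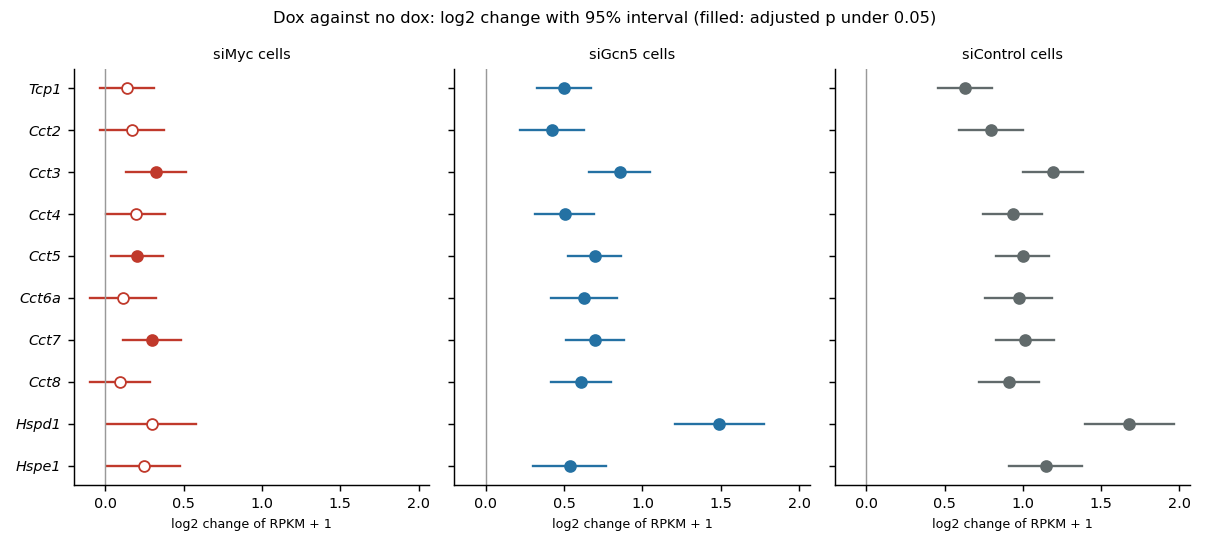
Log2 change of RPKM + 1 with dox against no dox (x axis) for each chaperonin gene (y axis) in siMyc, siGcn5 and siControl cells; points are limma estimates, lines 95% intervals, and filled points passed an adjusted p under 0.05. All 10 genes were called in siGcn5 and siControl cells and 3 of 10 in siMyc cells.

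In siMyc cells dox moved the same genes little: Cct3, Cct5 and Cct7 were called as higher and the other 7 were not, beside 44.8% of all genes called in this comparison. The members' median was 0.20, against 0.08 over all genes, and 0.10 against −0.08 under quantile normalization. Cct3 had 205 and 230.0 RPKM in siMyc cells with dox, against 177 and 170.0 without (log2 0.32, adjusted p = 0.0119). Cct7 had 143 and 161, against 121 and 125 (log2 0.30, adjusted p = 0.0154), and Cct5 178 and 199.8, against 162 and 165 (log2 0.20, adjusted p = 0.0499). The libraries of these 3 genes did not overlap between the conditions, and neither did those of Tcp1, Cct4, Hspd1 and Hspe1, which were not called. Library order thus does not set the called genes apart. Hspd1 stood at 156 and 200.2 RPKM, against 142 and 146 (log2 0.29, adjusted p = 0.0875; 95% interval 0.01 to 0.58), and Hspe1 at 137 and 166, against 129.7 and 125 (log2 0.24, adjusted p = 0.0855; 95% interval 0.01 to 0.48). Cct8 had the smallest change, log2 0.09 (95% interval −0.10 to 0.29), with 185 and 208 RPKM against 177 and 191, libraries that overlapped. The 3 calls were sensitive to scale and to single libraries: 0 members were called under either other scaling (median-ratio or quantile) and 0 without siMyc replicate 2 with dox, 1 without either siMyc library without dox, and 6 without siMyc replicate 1 with dox. Cct5 also lost its call without any 1 library of siControl cells or of siGcn5 cells without dox.

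The dox response itself differed between siMyc and siControl cells for all 10 genes by the interaction of siRNA and dox, beside 54.1% of all genes called. The difference in log2 change (siMyc minus siControl) was largest in size for Hspd1 at −1.39 (SE 0.18, adjusted p = 0.000209), then −0.90 for Hspe1, and it ran from −0.87 (Cct3) to −0.49 (Tcp1, adjusted p = 0.00403) over the cytosolic genes. The members' median was −0.81, against −0.03 over all genes tested, and the 10 calls held in each of the 21 alternative settings. In siGcn5 cells all 10 genes rose with dox, from log2 0.42 (Cct2) to 1.49 (Hspd1), at a median of 0.62 against 0.08 over all genes (0.53 against −0.07 under quantile normalization), beside 58.4% of all genes called. Hspd1 had 348 and 427 RPKM in siGcn5 cells with dox, against 135 and 138 without dox (log2 1.49, SE 0.13, adjusted p = 8.6e-06). Cct3 rose most of the cytosolic genes again, with 315 and 372, against 187 and 191 (log2 0.85, adjusted p = 2.49e-05). The interaction of siGcn5 and dox called 2 of 10 genes, Hspe1 (log2 −0.61, adjusted p = 0.0159) and Cct4 (log2 −0.43, adjusted p = 0.0263), both with a smaller rise in siGcn5 cells than in siControl cells, beside 25.9% of all genes called. In this fit the other 8 had differences of log2 −0.38 (Cct2) to −0.13 (Tcp1) and did not pass, and Hspd1 had a 95% interval of −0.59 to 0.21. This count was 0 without siControl replicate 2 without dox, siControl replicate 2 with dox or siGcn5 replicate 1 without dox. It was 1 without siControl replicate 1 without dox, siGcn5 replicate 2 without dox or siGcn5 replicate 1 with dox, 4 without either siMyc library with dox, and 5 without siGcn5 replicate 2 with dox. It was 1 with median-ratio scaling, 4 with a fit on the groups compared alone and 8 with the replicate number as a block in the fit.

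With dox, siMyc lowered all 10 chaperonin genes below siControl, to levels near or below those of siControl cells without dox, and the 10 calls held in each of the 21 alternative settings. The fall ran from log2 −0.66 (Tcp1) to −2.06 (Hspd1) with a median of −1.14, against 0.02 over all genes tested, of which 74.9% were called and 37.1% fell. The comparisons of siMyc and siGcn5 with siControl, and of dox in siControl cells, share siControl libraries and are not independent of one another.

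Hspd1 had 156 and 200.2 RPKM in siMyc cells with dox, against 692 and 793 in siControl cells with dox, a fall to 0.239 of the siControl level on the log2(RPKM + 1) scale (log2 −2.06, SE 0.13, adjusted p = 4.35e-07). Only 0.687% of genes tested had a log2 change as low or lower. Hspe1 had 137 and 166 RPKM, against 409 and 418 (log2 −1.45, SE 0.11, adjusted p = 9.86e-07). The siMyc libraries of both genes lay below both siControl libraries by more than the gap between replicates. Of the cytosolic genes, Cct6a fell most, with 107 and 127 RPKM, against 288 and 309.8 (log2 −1.35, SE 0.095, adjusted p = 8.24e-07). Cct5 followed with 178 and 199.8, against 436 and 469 (log2 −1.26, SE 0.075, adjusted p = 3.54e-07), and Cct3 with 205 and 230.0, against 486 and 501 (log2 −1.18, SE 0.087, adjusted p = 1.06e-06). Cct7, Cct4, Cct2 and Cct8 fell by similar amounts, at log2 −1.11, −1.09, −1.06 and −1.05. Cct7 had 143 and 161 RPKM, against 323 and 334, Cct4 had 158 and 176, against 336 and 378, Cct2 had 214 and 255, against 471 and 506, and Cct8 had 185 and 208, against 385 and 436. Tcp1 fell least, with 186 and 192 RPKM, against 285 and 313 (log2 −0.66, SE 0.078, adjusted p = 2.69e-05; 95% interval −0.83 to −0.48). In each of the 10 genes siMyc replicate 2 stood above replicate 1, and the same held for all 10 in siGcn5 and siControl cells with dox.

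**Figure D3:**
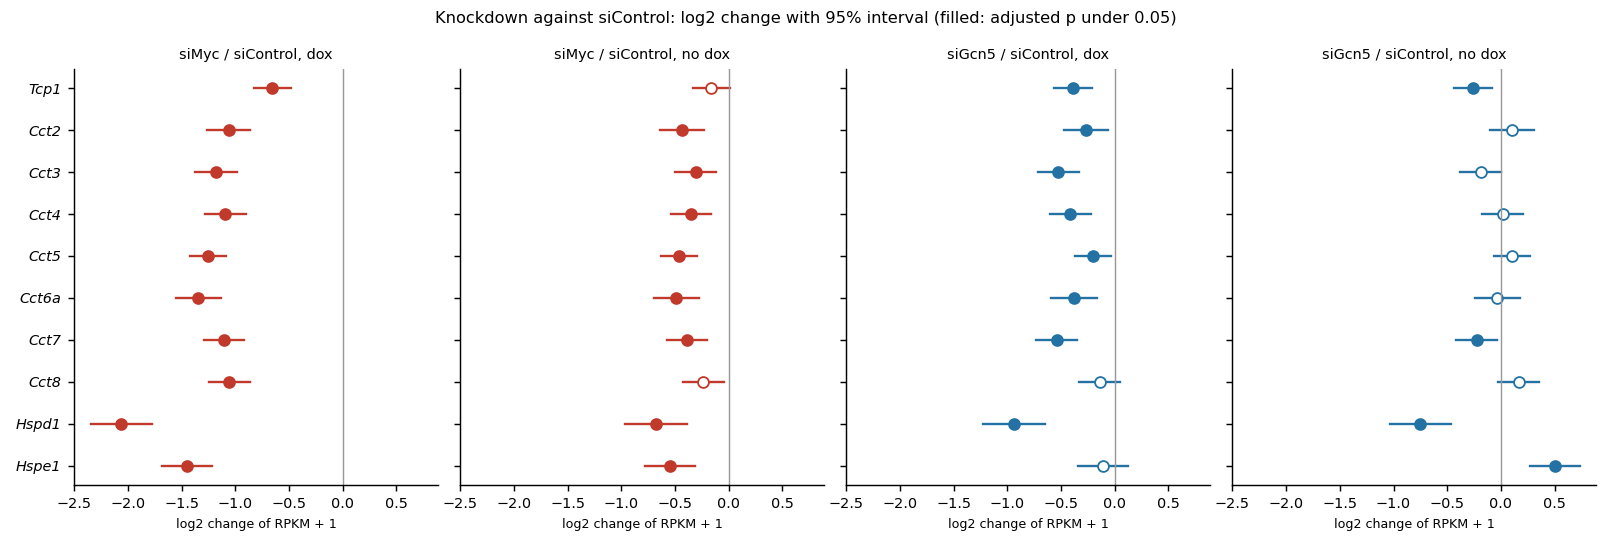
Log2 change of RPKM + 1 in siMyc or siGcn5 cells against siControl cells (x axis) for each chaperonin gene (y axis), with dox and without; points are limma estimates, lines 95% intervals, and filled points passed an adjusted p under 0.05. Hspd1 had the lowest value in all 4 panels, and Hspe1 alone was called as higher, in siGcn5 cells without dox.

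Without dox, siMyc lowered 8 of the 10 genes, each by less than with dox, beside 23.5% of all genes called and 10.7% that fell. The median was −0.41, against 0.02 over all genes. Hspd1 had 142 and 146 RPKM in siMyc cells, against 241 and 221 in siControl cells (log2 −0.68, SE 0.13, adjusted p = 0.00499), and Hspe1 had 129.7 and 125, against 192 and 181 (log2 −0.55, SE 0.11, adjusted p = 0.00544). Cct6a had 101 and 115, against 149.7 and 154 (log2 −0.49, adjusted p = 0.00575), and Cct5 162 and 165, against 223 and 228 (log2 −0.46, adjusted p = 0.00266). In all 10 genes, called or not, both siMyc libraries lay below both siControl libraries. Cct2 was at log2 −0.44, Cct7 at −0.39, Cct4 at −0.35 and Cct3 at −0.31, all called. Tcp1 had 172 and 172 RPKM, against 191 and 194 (log2 −0.16, adjusted p = 0.164; 95% interval −0.34 to 0.01), and Cct8 177 and 191, against 210.3 and 224 (log2 −0.24, adjusted p = 0.0734; 95% interval −0.43 to −0.04), and neither was called. The count of 8 was 5 without siControl replicate 1, 4 without siControl replicate 2 and 3 without siMyc replicate 1, each without dox. Cct3 also lost its call without siMyc replicate 2, while Hspd1, Hspe1 and Cct5 were called in all 21 alternative settings.

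With dox, siGcn5 lowered 8 of the 10 genes below siControl, beside 56.3% of all genes called and 24.9% that fell, and the falls were smaller than those with siMyc. The median was −0.38, against 0.05 over all genes. Hspd1 had the largest fall, with 348 and 427 RPKM in siGcn5 cells with dox, against 692 and 793 in siControl cells with dox (log2 −0.94, SE 0.13, adjusted p = 0.000239), a change that 3.22% of genes matched or went below. The next falls were Cct7 (208 and 243 RPKM, against 323 and 334; log2 −0.54, adjusted p = 0.000474) and Cct3 (315 and 372, against 486 and 501; log2 −0.53, adjusted p = 0.000655). Cct4 was at log2 −0.41, Tcp1 at −0.39, Cct6a at −0.38, Cct2 at −0.27 and Cct5 at −0.20, all called. The lid gene Hspe1 had 366 and 401 RPKM, against 409 and 418 (log2 −0.11, adjusted p = 0.397; 95% interval −0.34 to 0.12), and Cct8 had 360.2 and 383, against 385 and 436 (log2 −0.14, adjusted p = 0.188; 95% interval −0.33 to 0.05). Neither was called. In both genes the siGcn5 libraries lay below the siControl libraries by less than the gap between replicates of either group. With quantile normalization, array weights or a fit on the groups compared alone, 6 genes were called, and Cct2 and Cct5 lost their calls. The count of 8 was 5 without siControl replicate 2 with dox or without siGcn5 replicate 1 with dox, where Cct2, Cct5 and Cct6a lost their calls. Cct5 also lost its call without any 1 of the 6 libraries of the groups without dox, and Hspd1, Cct7, Cct3, Cct4 and Tcp1 were called in all 21 alternative settings.

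Without dox, siGcn5 split the mitochondrial pair: Hspd1 fell and Hspe1 rose, while most cytosolic subunits were not called. Hspd1 had 135 and 138 RPKM in siGcn5 cells, against 241 and 221 in siControl cells (log2 −0.75, SE 0.13, adjusted p = 0.000703; 95% interval −1.04 to −0.47). Hspe1 had 289 and 242 RPKM, against 192 and 181 (log2 0.50, SE 0.11, adjusted p = 0.00236; 95% interval 0.27 to 0.74). Both siGcn5 libraries of Hspd1 lay below both siControl libraries, and both of Hspe1 lay above. Both calls held in all 21 alternative settings, with adjusted p up to 0.00846 for Hspd1 and 0.0273 for Hspe1. Tcp1 (log2 −0.26, adjusted p = 0.0167) and Cct7 (log2 −0.23, adjusted p = 0.041) were called as lower, which made 4 of 10 called, beside 57.3% of all genes, and the median of all genes was log2 0.11 (0.01 under median-ratio and 0.04 under quantile scaling). The other 6 cytosolic genes ran from log2 −0.19 (Cct3, adjusted p = 0.0885) to 0.17 (Cct8, adjusted p = 0.118), and the signs of Cct2, Cct4 and Cct5 turned under median-ratio scaling. Without siControl replicate 1, siControl replicate 2 or siGcn5 replicate 1, the 2 genes called were Hspe1, higher, and Hspd1, lower. Cct7 also lost its call without siGcn5 replicate 2, without either siControl library with dox or without either siMyc library without dox. Cct3 was called as lower in 7 of the 21 alternative settings, among them median-ratio scaling, quantile normalization and the replicate block. With the replicate block Cct8 was called as higher, and the count was 6.

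The ratio of Hspd1 to Hspe1 RPKM within a library followed this split. It was 1.13 and 1.21 in siMyc cells with dox, 0.952 and 1.06 in siGcn5 cells with dox and 1.69 and 1.90 in siControl cells with dox. Without dox it was 1.09 and 1.17 in siMyc cells, 0.468 and 0.571 in siGcn5 cells and 1.26 and 1.22 in siControl cells. The siGcn5 libraries without dox had the lowest ratios and the siControl libraries with dox the highest of the 12, and the ratio itself was not tested. Set against the mean of the 8 cytosolic subunits, Hspd1 stood at 1.26 ± 0.0969 times that mean in siGcn5 cells with dox, against 1.90 ± 0.0813 in siControl cells with dox, and at 0.677 ± 0.00149 in siGcn5 cells without dox, against 1.13 ± 0.0898 in siControl cells without dox (SD, n = 2 each). The RefSeq models of the pair share 96 bases at their starts on opposite strands. The library kit keeps strand, but the handling of strand in counting is not given in the sources used here, so that reads from the shared bases are uncertain. RefSeq also lists 23 pseudogenes named after Hspd1 and 7 after Hspe1, and 2 for Tcp1, 3 for Cct3, 1 for Cct4, 3 for Cct6a, 5 for Cct7 and 2 for Cct8, none of which has a row in the tables, and reads that match a gene and its copies could have been split or dropped.

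**Figure D4:**
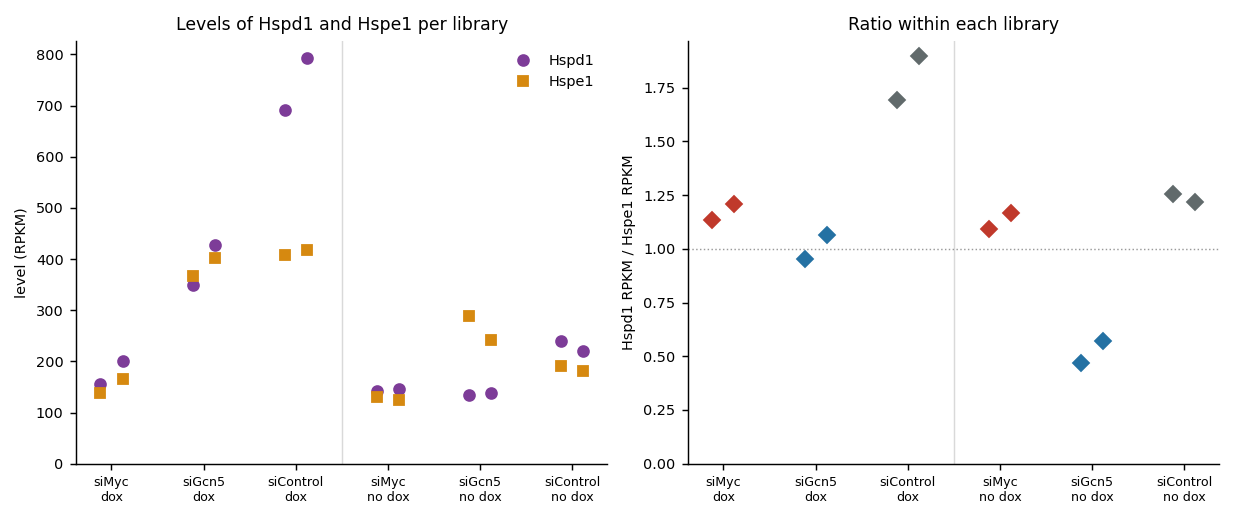
Left, RPKM of Hspd1 (circles) and Hspe1 (squares) in each of 12 libraries; right, the ratio of both within each library (a dotted line marks 1). The siGcn5 libraries without dox had ratios of 0.468 and 0.571, below the other 10 libraries.

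Set directly against siGcn5, siMyc gave lower levels of all 10 genes with dox, beside 65.9% of all genes called and 38.6% that were lower. The members' median was −0.85, against −0.09 over all genes (−0.70 against 0.03 under median-ratio scaling). Hspe1 differed most, with 137 and 166 RPKM in siMyc cells with dox, against 366 and 401 in siGcn5 cells with dox (log2 −1.34, SE 0.11, adjusted p = 2.43e-06). Hspd1 followed (log2 −1.12, adjusted p = 2.8e-05), then Cct5 with 178 and 199.8, against 379.9 and 406 (log2 −1.06, adjusted p = 1.41e-06), and Tcp1 differed least (log2 −0.27, adjusted p = 0.012). Tcp1 was not called with median-ratio scaling, without siMyc replicate 1 with dox or without siGcn5 replicate 2 with dox, and the other 9 were called in all 21 alternative settings. Without dox, 58.7% of all genes were called, 36.55% as lower in siMyc than in siGcn5 cells and 22.18% as higher (median −0.11). Of the 10 members none was higher and 6 were lower, a count near the share of all genes called in either direction. They were Hspe1 (log2 −1.05, adjusted p = 2.82e-05), Cct5 (log2 −0.57, adjusted p = 0.000143), Cct2 (log2 −0.54, adjusted p = 0.000598), Cct6a (log2 −0.45, adjusted p = 0.00216), Cct8 (log2 −0.40, adjusted p = 0.00239) and Cct4 (log2 −0.37, adjusted p = 0.00381), of which Cct4 was not called with median-ratio scaling. Hspd1 had 142 and 146 RPKM in siMyc cells, against 135 and 138 in siGcn5 cells, and was not called (log2 0.07, adjusted p = 0.65; 95% interval −0.21 to 0.36).

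The 8 cytosolic subunits stayed close to one another: the highest was 1.64 to 2.24 times the lowest in each of the 12 libraries. Their summed RPKM was 1376 and 1550 in siMyc cells with dox, 2348 and 2581 in siGcn5 cells with dox and 3009 and 3246 in siControl cells with dox. Without dox it was 1250 and 1306 in siMyc cells, 1599 and 1629 in siGcn5 cells and 1609 and 1653 in siControl cells. The sums of siGcn5 and siControl cells without dox lay close together, and that of siMyc cells with dox lay below both. The coefficient of variation between the 8 subunits was 25.6 ± 1.32% in siGcn5 cells with dox and 28.2 ± 2.27% without dox (SD, n = 2), against 20.0% to 20.9% on average in the other 4 groups. Cct2 had the highest level in 11 of 12 libraries (Cct3 in siControl replicate 1 with dox). In siControl cells without dox the order ran Cct2, Hspd1, Cct5, Cct8, Cct3, Tcp1, Hspe1, Cct4, Cct7 and Cct6a, and the libraries of Hspd1, Cct5, Cct8 and Cct3 overlapped from neighbour to neighbour, as did those of Tcp1, Hspe1 and Cct4. In siGcn5 cells without dox Hspd1 came last, at 137 ± 2.08 RPKM (SD, n = 2), overlapping Cct7 alone, and Hspe1 came next after Cct2, at 265 ± 33.3, overlapping Cct8 and Cct5. Cct6a was the lowest cytosolic subunit in both siMyc groups, at 117 ± 13.9 RPKM with dox and 108 ± 10.2 without dox (SD, n = 2).

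Across the 12 libraries the profile of Cct4 was nearest to the mean of the 8 cytosolic subunits, with a root mean square difference of 0.03 on the centred log2 scale. Tcp1 was farthest of the 8 at 0.21, and Hspe1 and Hspd1 lay at 0.29 and 0.46. Of genes that are no chaperonin, the 8 nearest to the cytosolic mean were Ppp1r8, Erh, Eif3b, Seh1l, Tomm70a, Nupl1, Tsr1 and Nup54, at 0.05 to 0.06. Eif3b encodes a translation initiation factor subunit, Seh1l, Nupl1 and Nup54 encode nuclear pore proteins, Tomm70a a receptor of mitochondrial import and Tsr1 a ribosome assembly factor. Erh, for example, had 130.2 and 143 RPKM in siMyc cells with dox, 219.9 and 263 in siGcn5 cells with dox and 297 and 326 in siControl cells with dox. The 5 genes nearest to the mean of Hspd1 and Hspe1 were Sdad1, Nop2, Impdh2, Emg1 and Noc4l, at 0.07 to 0.10. Nop2, Emg1 and Noc4l act in ribosome assembly, and Impdh2 is the rate-limiting enzyme of guanine nucleotide synthesis, with 75.8 and 86.5 RPKM in siMyc cells with dox, 203 and 233 in siGcn5 cells with dox and 296 and 299 in siControl cells with dox. Likeness over 12 libraries is a description, since the libraries share their groups.

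Genes that work with the chaperonins were counted by list, and the counts are read against the shares over all genes. Prefoldin hands unfolded actin and tubulin to TRiC, and of 7 prefoldin and prefoldin-like genes tested, 3 fell and 2 rose with siMyc and dox (median −0.18), beside 37.8% of all genes that rose and 37.1% that fell in this comparison. These shares are near those of the list. Pfdn2 fell to 67.8 and 69.7 RPKM in siMyc cells with dox, against 114 and 118 in siControl cells with dox (log2 −0.74, SE 0.084, adjusted p = 1.75e-05), and Vbp1 (log2 −0.54, adjusted p = 0.000425) and Pfdn4 (log2 −0.52, adjusted p = 0.000222) fell as well. Dox in siControl cells raised 5 of the 7 and lowered 2 (median 0.57), beside 46.1% of all genes that rose and 27.9% that fell. Of 10 chaperonin and tubulin cofactors, 5 rose and none fell with siMyc and dox (median 0.20), or 3 rose without siControl replicate 2 with dox or without siMyc replicate 1 with dox. Arl2, a small GTPase that acts with the tubulin cofactors, had 57.6 and 51.4 RPKM, against 29.7 and 25.0 (log2 0.97, SE 0.094, adjusted p = 5.95e-06), Tbcd, a cofactor of tubulin assembly, was at log2 0.36, and Pdcl, a cofactor of TRiC in the assembly of G protein subunits, at 0.30. Among 20 substrates of TRiC, 8 fell and 6 rose (median −0.07), again near the shares over all genes. The beta-tubulin gene Tubb2a rose (96.0 and 105 RPKM, against 45.9 and 43.8; log2 1.14, adjusted p = 7.48e-07), and Cdc20, an activator of the anaphase-promoting complex (log2 −1.07, adjusted p = 0.00542), and the alpha-tubulin gene Tuba1c (log2 −0.81, adjusted p = 0.00025) fell. With siGcn5 and dox 13 of these 20 fell and 2 rose (median −0.37), beside 24.9% of all genes that fell and 31.4% that rose. Of the 3 chaperonin-like genes tested, Bbs12, which helps to assemble the BBSome, fell with siMyc and dox (log2 −0.77, adjusted p = 7.68e-05), and Cct6b, a relative of Cct6a known from testis, stood at 0.04 to 0.31 RPKM in the 12 libraries and was not tested.

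The other chaperone systems are given by compartment. With siMyc and dox 37.8% of all genes rose and 37.1% fell. With dox in siControl cells 46.1% of all genes rose and 27.9% fell. Of 27 genes of the cytosolic Hsp70 and Hsp90 system, 19 fell and 2 rose with siMyc and dox (median −0.58), and 22 rose and 3 fell with dox in siControl cells (median 0.71). Fkbp4, a co-chaperone of Hsp90, had 30.3 and 39.4 RPKM in siMyc cells with dox, against 199 and 196 in siControl cells with dox (log2 −2.48, SE 0.15, adjusted p = 3.31e-07). Dnajc2, a J protein at the ribosome, was at log2 −1.49, and Hsph1, an exchange factor of Hsp70, at −1.38. Mitochondrial import brings the proteins that Hspd1 and Hspe1 fold into the matrix, and of its 20 genes 17 fell and 1 rose with siMyc and dox (median −0.89), and 19 rose and 1 fell with dox in siControl cells (median 0.93). Timm8a1, a chaperone of the intermembrane space, had 19.0 and 28.7 RPKM, against 101 and 109 (log2 −2.12, SE 0.16, adjusted p = 1.17e-06), and Tomm5 and Timm9 were at log2 −1.46 and −1.32. Of 15 mitochondrial chaperones and proteases, 10 fell and 3 rose with siMyc and dox (median −0.37), with Trap1, the mitochondrial Hsp90, at log2 −1.22, the protease subunit Clpp at −1.16 and the J protein Dnaja3 at −0.97.

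Chaperones of the endoplasmic reticulum and the small heat shock proteins were called higher more often than lower with siMyc and dox, in a comparison where 37.8% of all genes rose and 37.1% fell. Of 17 endoplasmic reticulum chaperones, 11 rose and 2 fell with siMyc and dox (median 0.35), and 2 rose and 7 fell with dox in siControl cells (median −0.24). The 11 rises were 5 without siControl replicate 2 with dox and 6 without siMyc replicate 1 with dox, counts near the share over all genes. Dnajb9, a J protein induced by misfolded proteins in this compartment, had 21.1 and 18.2 RPKM in siMyc cells with dox, against 7.18 and 7.40 in siControl cells with dox (log2 1.31, SE 0.12, adjusted p = 3.62e-06). Dnajc3 was at log2 0.96 and Sdf2l1 fell (log2 −0.83, adjusted p = 0.00285). Of 8 heat shock factors and small heat shock proteins, 5 rose and 1 fell with siMyc and dox (median 0.61). Hspb1 (Hsp27) had 479 and 376 RPKM, against 242 and 181 (log2 1.01, adjusted p = 0.000342), Hspb6 25.2 and 27.6, against 9.98 and 8.21 (log2 1.44, adjusted p = 8.01e-06), and Hspb2 9.70 and 9.90, against 4.11 and 2.61 (log2 1.33, adjusted p = 1.2e-05). The list medians stand beside medians over all genes of 0.02 for siMyc with dox, 0.05 for siGcn5 with dox and 0.17 for dox in siControl cells. In the last of these comparisons 46.1% of all genes rose and 27.9% fell.

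**Figure D5:**
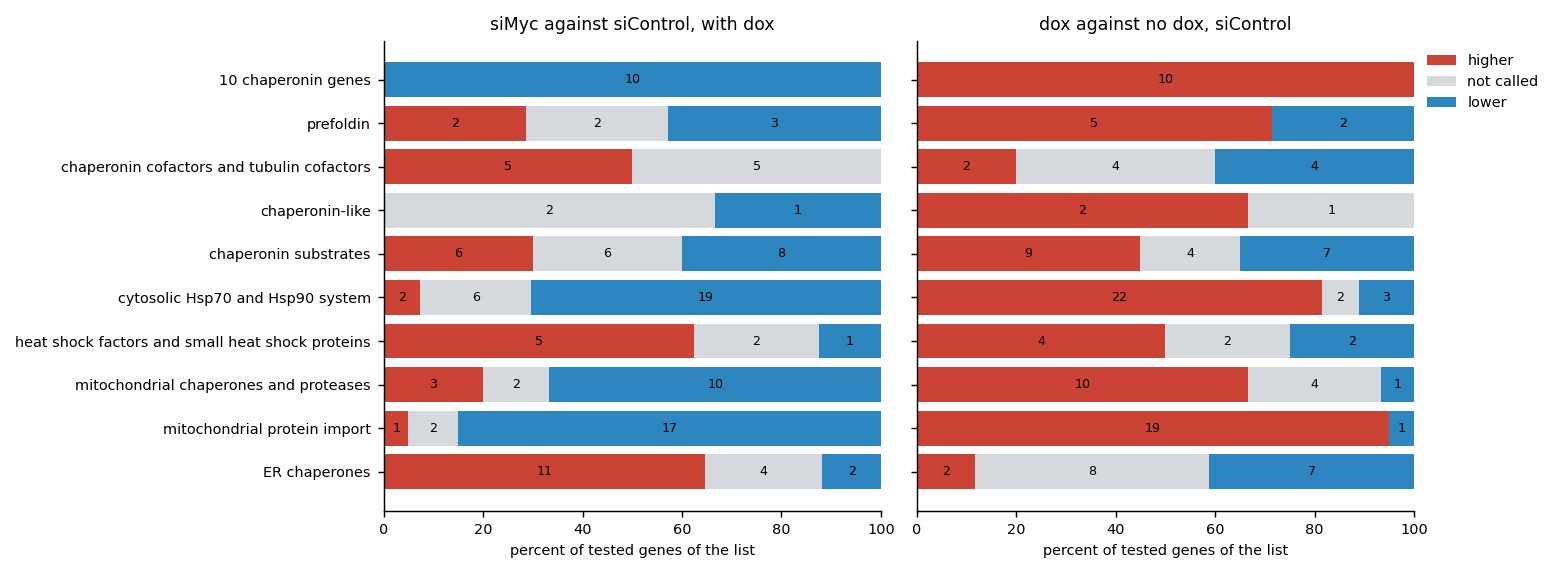
Share of the tested genes of each list (x axis, percent) that were called higher, not called or called lower, with the counts in the bars, for siMyc against siControl with dox (left) and dox against no dox in siControl cells (right). All 10 chaperonin genes were lower on the left and higher on the right.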

How the data were processed

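RNA-seq of 12 libraries in 6 groups of 2 was used. The values are RPKM per gene symbol as deposited, made by the authors from total RNA depleted of ribosomal RNA in strand-keeping libraries, per the labels' protocols. The submitters' processing notes name mm9, Bowtie 0.12.8, TopHat2 2.0.9, affy, HTSeq and edgeR, without saying which step used which. The sources used here give neither the annotation nor the handling of strand in counting. RPKM steps gave back whole reads for 20785 of 20788 genes (tolerance 0.05 read), which gave the depth of 65.55 to 188.2 M gene reads per library and the voom alternative.

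Values were transformed as log2(RPKM + 1), and the 13175 genes that reached an RPKM of 1 in 2 or more of the 12 libraries were fitted with limma 3.58.1 (R 4.3.3; trend, 1 term per group, 6 residual degrees of freedom) and adjusted by the Benjamini-Hochberg method over all of them. Fold changes on this scale understate changes of low genes. Calls were made at an adjusted p under 0.05, in 11 comparisons. The script was tested on simulated data. With 2 libraries a group, and replicates not labelled as separate cultures, the error may be technical. Tables and plots used pandas 2.3.3 and matplotlib 3.10.9.

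The members and lists were chosen with earlier results of these data known. Named genes were, for each list, the 3 with the largest change among those called for siMyc against siControl with dox, and, for likeness, those with the smallest root mean square difference over 12 libraries. The alternatives were another pseudocount (0.1), no filter or a mean RPKM of at least 5, median-ratio and quantile scaling, array weights, a replicate block, voom on the recovered reads, only the groups compared, and each library left out in turn.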

Additional observations from a re-analysis of the deposited data

Results flagged for a closer look

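The response to dox differed between siMyc and siControl cells for every chaperonin gene by the interaction test of limma, beside 54.1% of all genes called. The difference in log2 change was −0.49 for Tcp1, −0.63 for Cct2, −0.87 for Cct3, −0.74 for Cct4, −0.80 for Cct5, −0.86 for Cct6a, −0.72 for Cct7 and −0.82 for Cct8. It was −1.39 for Hspd1 and −0.90 for Hspe1. Between siGcn5 and siControl cells the same test called Cct4, at −0.43, and Hspe1, at −0.61, beside 25.9% of all genes called. Which members were called in this test changed with the settings, as given below. Marker sums and library order moved with these groups as given above, and their part was not tested.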

How the results depend on the processing

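Of the repeats of the members' log2 changes under an alternative, 2190 kept direction and side of the threshold, 81 lost the call, 32 gained one and 7 turned sign. All 10 members stayed called under every alternative for siMyc with dox, for dox in siControl and siGcn5 cells, and for the interaction of siMyc and dox. The count was 8 for siMyc without dox (3 to 8 with 1 library left out), 8 for siGcn5 with dox (5 to 8) and 4 for siGcn5 without dox (2 to 5, and 6 with the replicate block). For dox in siMyc cells it was 3, but 0 with median-ratio scaling, 0 with quantile normalization, 5 with the replicate block and 0 to 6 with 1 library left out. For the interaction of siGcn5 and dox it was 2, but 1 with median-ratio scaling, 8 with the replicate block, 4 with the groups compared alone and 0 to 5 with 1 library left out; the cause was not tested.

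For siGcn5 without dox, median-ratio scaling turned Cct2 to −0.038, Cct4 to −0.13 and Cct5 to −0.041, quantile normalization turned Cct4 to −0.0251, and Cct4 ran from −0.0231 to 0.0565 with 1 library left out. For dox in siMyc cells Cct6a ran from −0.00703 to 0.23 with 1 library left out, and for the interaction of siGcn5 and dox quantile normalization gave 0.11 for Hspd1.

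Rises as a share of calls over all genes moved with median-ratio and quantile scaling. They were 64.4% for siGcn5 without dox (49.5% and 54.0%), 64.5% for dox in siMyc cells (54.7% and 40.2%), 61.6% for dox in siGcn5 cells (49.2% and 43.0%), 44.0% for the interaction of siGcn5 and dox (57.0% and 52.2%), 41.4% for siMyc against siGcn5 with dox (53.6% and 46.1%) and 37.8% without dox (49.1% and 45.3%). Calls over all genes numbered 3098 for siMyc without dox, against 1072 to 1387 without siMyc replicate 1 or either siControl library, all without dox. They numbered 3409 for the interaction of siGcn5 and dox, against 1677 to 2232 without either siControl library or siGcn5 replicate 1 without dox, or without siControl replicate 2 or siGcn5 replicate 1 with dox. They numbered 5899 for dox in siMyc cells, against 3787 at a mean RPKM of at least 5, which tests fewer genes.

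Deviations of same-numbered libraries correlated positively in all 15 pairs of groups, at 0.0933 to 0.489, with 14 over 0.1. The fit without the block was kept because 1 pair missed 0.1 and no label says what the numbers share; whether the numbers mark a common effect was not tested beyond this. For the interaction of siGcn5 and dox the block added calls for Cct2, Cct3, Cct5, Cct6a, Cct7 and Cct8. For dox in siMyc cells the block raised the count from 3 to 5. It moved no other count of members by over 1.5 times. Each member had 6919 or more reads in every library, and the 2 libraries per group, which may be technical repeats, limit what the tests can show.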
